A study of Mus musculus with 230 samples.

Results

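The comparison described here sets injured sensory neurons of 8-month-old mice against injured sensory neurons of 1-month-old mice. Its members are 6 low-input RNA libraries, 3 per age, chosen by the age and condition in their labels, out of 18 low-input RNA libraries and 230 samples in the series. All animals were crosses of the strains C57BL/6 and CAST/Ei, and the labels give no sex. The injured groups came from mice that had sciatic nerve injury surgery, which damages the axons of neurons in the L4 and L5 dorsal root ganglia (DRG), the sensory ganglia beside the spinal cord. Ganglia were dissociated with enzymes, neurons were picked by hand, the nucleus was removed and the cytoplasm went into SMART-seq2 libraries. The other 12 low-input libraries, 3 each of injured neurons at 12 months and of intact neurons at 1, 8 and 12 months, entered the fit to share its estimate of spread. The labels do not give the interval between surgery and collection or the number of neurons per library. They also do not say whether the libraries of a group came from separate animals. The p-values of that fit therefore measure a spread pooled over all 18 libraries, not over the 6 compared alone. That spread may in part be technical. One library of each age was deposited under 2 sample entries of the same name, and the count table holds 1 column for each name.

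Sensory neurons of the DRG carry touch, pain and position signals to the spinal cord. After a peripheral nerve is cut or crushed, they switch on a growth program with factors such as Atf3 and growth-cone proteins such as Gap43, and regrowth is known to slow with age. Many mouse genes also have processed pseudogenes, copies made by reverse transcription of an mRNA. The copies are so similar to their parent genes that short reads can be assigned to either. Genes typed as pseudogenes in the reference were therefore kept apart from protein-coding genes. That class was not limited to processed copies.

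The 6 libraries held 4332515 to 6505970 fragment counts after removal of the spike-ins and of 1 dominant feature, CT010467.1, and detected 15395 to 18756 genes. The dominant feature took 35.7%, 36.1% and 39.8% of endogenous counts at 1 month and 59.7%, 45.4% and 41.6% at 8 months. Of the other libraries in the fit, the second intact one of 12 months had 93.8%. It kept 770328 counts without that feature and had a mitochondrial share of 40.5%. The mitochondrial share was 2.44%, 2.58% and 2.69% at 1 month and 1.79%, 1.75% and 1.63% at 8 months, without overlap (exact permutation test, two-sided, p = 0.1, the smallest that 3 against 3 libraries can give, adjusted p = 0.167 over 5 library measures). The same test gave the same p and adjusted p for the share of the dominant feature and for that of the ERCC spike-ins. The ERCC share was 1.20%, 2.13% and 1.42% at 1 month and 11.6%, 2.67% and 2.30% at 8 months. Neither share overlapped between the ages. All 6 libraries had counts of Y-linked genes (211 to 392) and no count of Xist, while the 3 injured 12-month libraries had 0 Y-linked counts. Across genes the Spearman correlation was 0.960 to 0.965 between 1-month libraries, 0.882 to 0.959 between 8-month libraries and 0.855 to 0.956 between ages.

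The first 8-month library stood apart from the other 5 in its neuronal makeup. Values below are CPM (counts per 1e+06 counts) of the scaled library without the dominant feature. All 15 general neuron markers were tested, and their sum was 45021 to 45531 CPM at 1 month and 27711, 49411 and 45889.5 CPM at 8 months. Markers of large neurofilament-rich neurons summed to 3838, 4826 and 4688 CPM at 1 month and to 862, 3467 and 3014 CPM at 8 months. Markers of non-peptidergic nociceptors, small pain neurons, summed to 1269, 948 and 1581 CPM at 1 month and to 6099, 1339 and 2214 CPM at 8 months. The first 8-month library was thus lowest for both of the former lists and highest for the latter. Mrgprd, a receptor that defines non-peptidergic nociceptors, reached 1039 CPM in it, against 4.06 and 158 CPM in the other 8-month libraries and 0, 0.149 and 93.1 CPM at 1 month. In such bulk samples fewer cells of a type and less RNA per cell cannot be told apart.

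Markers of satellite glia, the cells that wrap DRG neuron bodies, were lower at 8 months in all 12 members tested, and 9 of the 12 did not overlap between ages, where 11.4% of all genes tested were lower without overlap. Their sum was 4026, 6153 and 5743 CPM at 1 month and 1183, 2620.5 and 2421 CPM at 8 months. No member was called (edgeR, adjusted p below 0.05), 1 had an unadjusted p below 0.05, and DESeq2 called 0 (0.834% of all genes) and limma-voom 1, Sox10 (3.02% of all genes). The median log2 difference of the list was -1.46, against -0.004 over all genes, and it was -1.09 without the first 8-month library. Apoe, a lipid carrier, was the largest part of the summed level in each of the 6 libraries. It was at 2679.7, 4211 and 4184 CPM at 1 month and 586, 1355 and 1388 CPM at 8 months (log2 difference -1.73 ± 1.83 (SE), unadjusted edgeR p = 0.358). Sox10, the transcription factor that defines glia of the nerve, was at 9.77, 14.3 and 10.8 CPM at 1 month and 2.15, 0.649 and 1.78 CPM at 8 months (-2.92 ± 1.09, unadjusted edgeR p = 0.0158). Immune cell markers summed to 7.18 to 39.2 CPM at 1 month and 16.1 to 26.3 CPM at 8 months, and Schwann cell markers to 760.6 to 872 CPM and 965.2 to 1308 CPM. Most of the Schwann cell sum was Pmp22, at 701, 670 and 787 CPM at 1 month and 1207, 918 and 888 CPM at 8 months. Of the 9 Schwann cell markers tested, 4 were higher and 5 lower, with a median log2 difference of -0.05. The part of these cell type markers in the differences below was not tested.

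**Figure D1:**
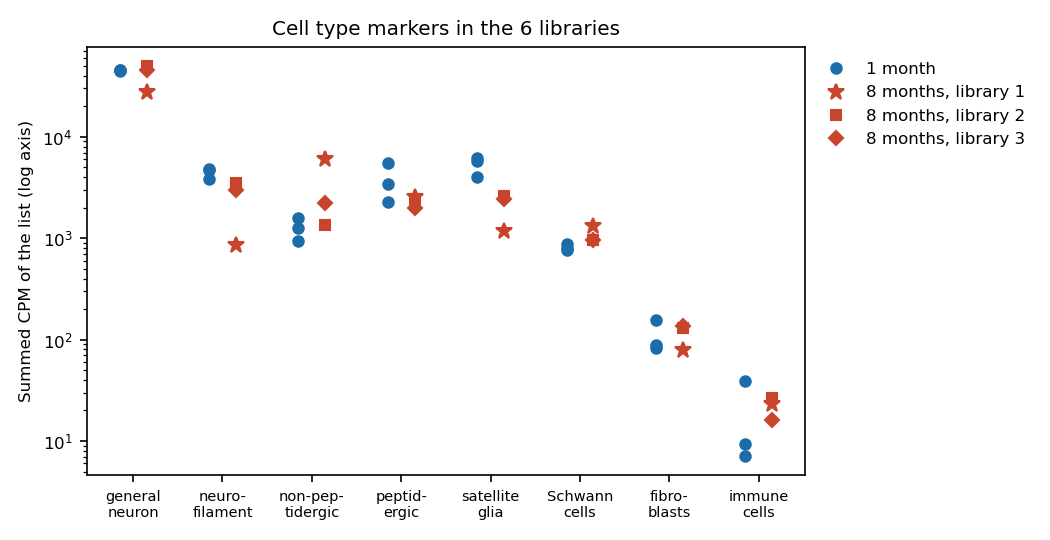
Summed CPM of marker lists (vertical log axis) in the 3 libraries of 1 month (circles) and of 8 months (star for the first library, square and diamond for the others). Satellite glia lie at 4026 to 6153 CPM at 1 month and 1183 to 2620.5 CPM at 8 months, and the first 8-month library lies apart in neurofilament and non-peptidergic markers.

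Few genes passed the edgeR test of 8 against 1 month over the 18 libraries, and most of those were pseudogenes. The edgeR test covered 14084 genes. At 8 months 22 passed an adjusted threshold of 0.05 on the higher side (0.156%) and 10 on the lower side (0.071%), 32 in all (0.227%). The split was 1 higher and 4 lower under ERCC totals, 60 and 57 with DESeq2 and 199 and 227 with limma-voom. Another threshold, an unadjusted p below 0.05, was met by 690 genes (4.9%). Of 12786 protein-coding genes, 7 were called (0.0547%), 2 higher and 5 lower. Of 487 pseudogenes, 23 were called (4.72%), 18 higher and 5 lower. Pseudogenes made up 74.2% of the 31 calls with a gene type and 3.53% of the 13777 typed genes tested. The 2 other calls were Gm10874, of another type, and Gm3608, which had no type in the reference. The ages did not overlap in any of the 32 genes, a property shared by 9.66% of all genes tested on the higher side and 11.4% on the lower side. The number of calls was 17 without the first or the third 1-month library, 18 without the second, 20 without the first or the third 8-month library and 23 without the second, and it was 132 of 13438 (0.982%) when only the 9 injured libraries were fitted, where 87 were protein coding and 35 were pseudogenes. With DESeq2, 63 of 117 calls were protein coding, and with limma-voom 311 of 426. All 32 genes were among those 132. The 6 libraries fitted alone gave 47 calls, 21 of them protein coding. Without the second intact 12-month library there were 40, of which 11 were protein coding.

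**Figure D2:**
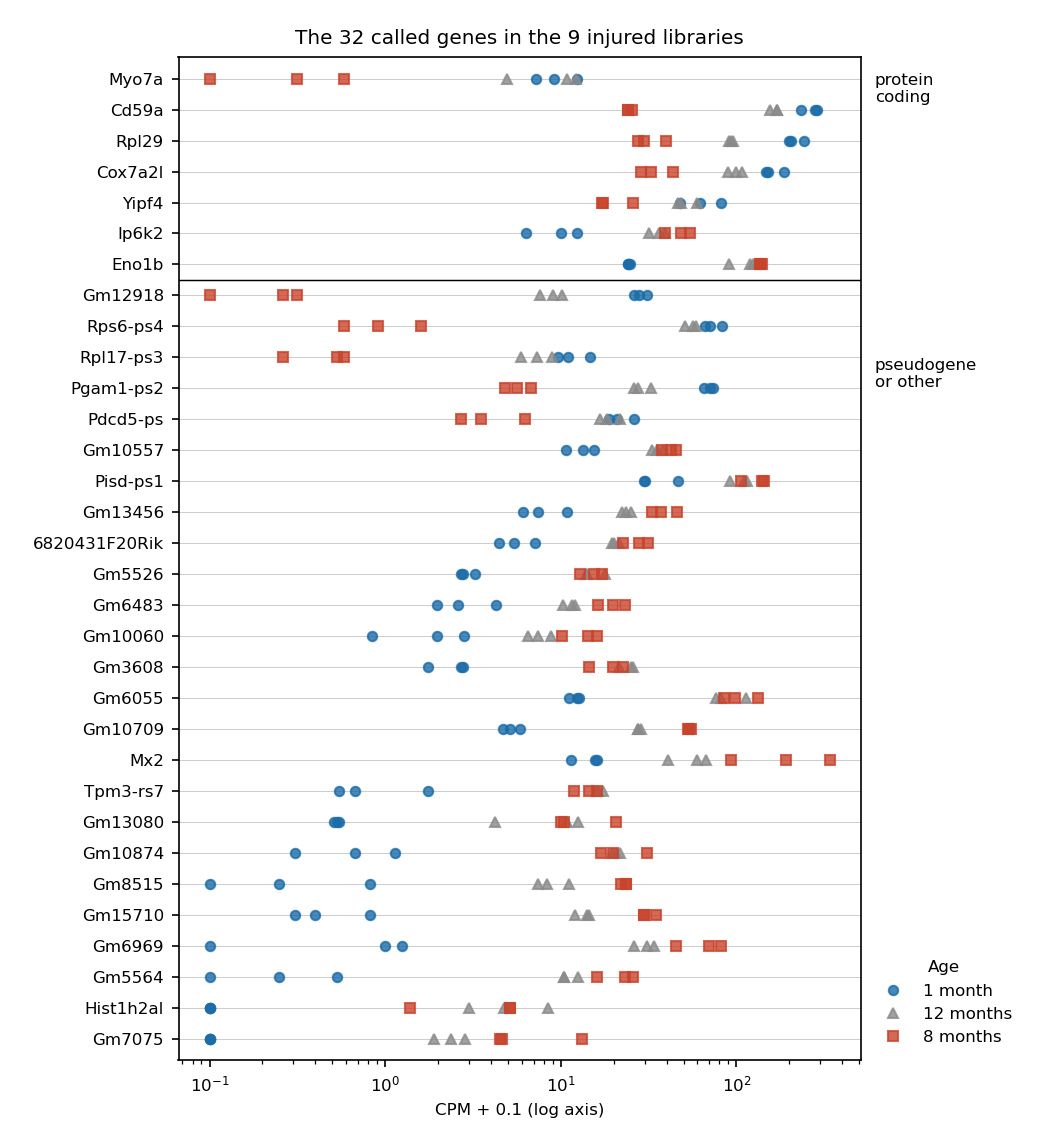
CPM plus 0.1 (horizontal log axis) of each called gene in the 9 injured libraries, with circles for 1 month, squares for 8 months and triangles for 12 months, 3 libraries each. Protein-coding genes stand above the line, and in every gene the circles and squares do not overlap.

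Among the protein-coding genes that fell, Cd59a had the smallest p. It encodes a membrane-anchored inhibitor of the complement attack complex (GRCm38, chromosome 2, 104095801 to 104115354). It was at 279, 233 and 288 CPM in the 1-month libraries and at 25.3, 24.2 and 24 CPM in the 8-month libraries. Every 8-month library was therefore far below every 1-month library, and the log2 difference was -3.44 ± 0.40 (edgeR adjusted p = 0.000276). Cd59a was the only called member of the 9 complement regulators tested, where 0.227% of all genes were called. That list was chosen with earlier results of these data known. Rpl29, a protein of the large ribosomal subunit (chromosome 9, 106429454 to 106431568), was at 198, 242 and 205 CPM at 1 month and 39.5, 29.8 and 27.4 CPM at 8 months (-2.74 ± 0.36, adjusted p = 0.00102). Cox7a2l, a factor in the assembly of respiratory chain supercomplexes (chromosome 17, 83501919 to 83514333), was at 148, 186 and 150 CPM and at 28.5, 43.6 and 32.4 CPM (-2.21 ± 0.39, adjusted p = 0.0169). In both genes the values within an age lay close together and the ages were well apart.

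Myo7a, an unconventional myosin best known from the hair cells of the inner ear (chromosome 7, 98051060 to 98119524), was at 9.05, 7.16 and 12.2 CPM at 1 month and at 0.215, 0 and 0.487 CPM at 8 months. The 8-month libraries together held 4 counts of it against 170 at 1 month, a ratio of scaled counts of 0.0256, and the fitted log2 difference was -5.21 ± 0.92 (edgeR adjusted p = 0.0165). Yipf4, a membrane protein of the Golgi (chromosome 17, 74489493 to 74500277), was the smallest of the decreases, at 47.8, 61.9 and 81.9 CPM against 17.2, 25.6 and 17.4 CPM (-1.67 ± 0.33, adjusted p = 0.0445). It lost its call in 17 of 28 alternatives.

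The 2 protein-coding genes that rose were Eno1b and Ip6k2. Eno1b (chromosome 18, 48045335 to 48048378) is a copy of the glycolysis gene Eno1 and is typed as protein coding. It was at 24, 24.6 and 24 CPM at 1 month and at 136, 137 and 140 CPM at 8 months, so that the libraries of an age barely differed (2.51 ± 0.29, edgeR adjusted p = 0.000276). Ip6k2, a kinase that makes inositol pyrophosphates (chromosome 9, 108783796 to 108806337), was at 12.2, 6.26 and 9.93 CPM at 1 month and 54.3, 48.3 and 38.9 CPM at 8 months (2.31 ± 0.31, adjusted p = 0.00129). It was the only called member of the 9 inositol phosphate kinases tested, where 0.227% of all genes were called. That list was chosen with earlier results of these data known.

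Of the 5 pseudogenes that fell, 3 were below 2 CPM in every 8-month library. Rps6-ps4, a copy of the ribosomal protein gene Rps6 (chromosome 2, 75191073 to 75191822), was at 70.8, 83.2 and 65.8 CPM at 1 month and at 1.5, 0.811 and 0.487 CPM at 8 months (-6.31 ± 0.56, edgeR adjusted p = 1.53e-05). Gm12918 (chromosome 4, 10848420 to 10849055) went from 27.7, 30.9 and 26.1 CPM to 0.215, 0.162 and 0 CPM, where the 8-month libraries held 2 counts together and the ratio of scaled counts was 0.00414 (adjusted p = 4.77e-05). Rpl17-ps3, a copy of another ribosomal protein gene (chromosome 12, 67510756 to 67511311), was at 9.48 to 14.5 CPM at 1 month and 0.162 to 0.487 CPM at 8 months (-4.94 ± 0.74, adjusted p = 0.00375). Pgam1-ps2, a copy of the glycolysis gene Pgam1 (chromosome 7, 27469771 to 27470535), was at 65.5 to 73.7 CPM and 4.72 to 6.65 CPM (-3.63 ± 0.53, adjusted p = 0.003). Pdcd5-ps, a copy of Pdcd5 (chromosome 1, 189277443 to 189277823), was at 18.6 to 25.9 CPM and 2.6 to 6.16 CPM (-2.41 ± 0.41, adjusted p = 0.0126).

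Among the 18 pseudogenes that rose, those with counts at 1 month had log2 differences from 1.67 (Gm10557) to 6.54 (Gm5564). Several were close to absent at 1 month. Gm15710 (chromosome 5, 92140294 to 92140929) had the smallest p of all genes, with 0.718, 0.298 and 0.207 CPM at 1 month and 34.6, 29.5 and 29.8 CPM at 8 months (6.14 ± 0.46, edgeR adjusted p = 2.76e-06). Gm6969 (chromosome 12, 24638669 to 24639010) was at 1.15, 0.895 and 0 CPM and at 45.3, 81.1 and 70.1 CPM, and Gm5564 (chromosome 5, 138504813 to 138505779) at 0.431, 0.149 and 0 CPM and at 23.2, 15.9 and 25.6 CPM. Gm7075 and Hist1h2al, a histone H2A gene copy, had no count at 1 month. Had the 1-month group held 3 counts, the floor used here, Gm7075 would be at least 42.1-fold and Hist1h2al at least 24.7-fold higher at 8 months, at 13.1, 4.54 and 4.38 CPM and at 1.29, 5.03 and 5.03 CPM (adjusted p = 0.013 and 0.0282).

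Others were above 4 CPM in every 1-month library. Gm10709 (chromosome 9, 7751725 to 7752204) was at 4.6, 5.07 and 5.79 CPM at 1 month and 54.7, 52.7 and 53.5 CPM at 8 months (3.38 ± 0.43, edgeR adjusted p = 0.000788), with almost no spread within an age. Gm6055 (chromosome 14, 48079375 to 48079752) was at 11.1, 12.2 and 12.6 CPM and 84.8, 132 and 98.5 CPM (3.13 ± 0.43). Pisd-ps1, a copy of a phosphatidylserine decarboxylase gene (chromosome 11, 3125904 to 3131004), was at 46.7, 29.8 and 30 CPM and 144, 106 and 139 CPM (1.87 ± 0.33). The other pseudogenes that rose were Gm8515 and Gm13080, with 6 and 8 counts at 1 month, Tpm3-rs7, Gm13456, Gm5526 and Gm10557, together with Mx2, which is described with the interferon genes, and a group on chromosome 8.

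Some calls were neighbours. On chromosome 8, Gm6483 (19682449 to 19697736), Gm10060 (19784746 to 19784856) and 6820431F20Rik (20262613 to 20297432) followed each other, with 565 kb between the outer genes, and rose by 2.78, 2.90 and 2.28 on the log2 scale. On chromosome 5, Gm5564 and Gm10874 lay 117 kb apart and rose by 6.54 and 5.11. The 32 calls lay on 16 chromosomes in all. The summed level of all 487 tested pseudogenes was 5875, 5955 and 5300 CPM at 1 month and 7720, 8070 and 6729 CPM at 8 months, without overlap, while their median log2 difference was 0.05.

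For 7 of the called copies the symbol names a parent gene, and edgeR over the 18 libraries called no parent. In the Rps6 pair, the pseudogene held 39.3%, 44.6% and 37.5% of the summed CPM at 1 month and 0.945%, 0.558% and 0.337% at 8 months. Rps6 itself was at 103 to 109 CPM at 1 month and 144 to 158 CPM at 8 months (0.47 ± 0.23, unadjusted edgeR p = 0.0595). Pgam1-ps2 held 16.8% to 18.7% of its pair at 1 month and 0.796% to 1.00% at 8 months, while Pgam1 was at 285 to 352 CPM and 589 to 657 CPM (0.94 ± 0.42, unadjusted edgeR p = 0.0395). Pgam1 was called with limma-voom (adjusted p = 0.0124) and with the 9 injured libraries alone (adjusted edgeR p = 0.0189). Eno1b held 2.21% to 2.51% and 11.8% to 13.3% of its pair, and Eno1 was at 932 to 1089 CPM and 889 to 1038 CPM. Tpm3-rs7 held 0.813% to 2.65% and 17% to 23.7%, and Tpm3 was at 47.1 to 60.8 CPM and 46.4 to 61.3 CPM. Rpl17, Pdcd5 and Pisd overlapped between ages as well. Because only reads with 1 place in the genome were counted, without regard to strand, the split of reads between a copy and its parent is uncertain.

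**Figure D3:**
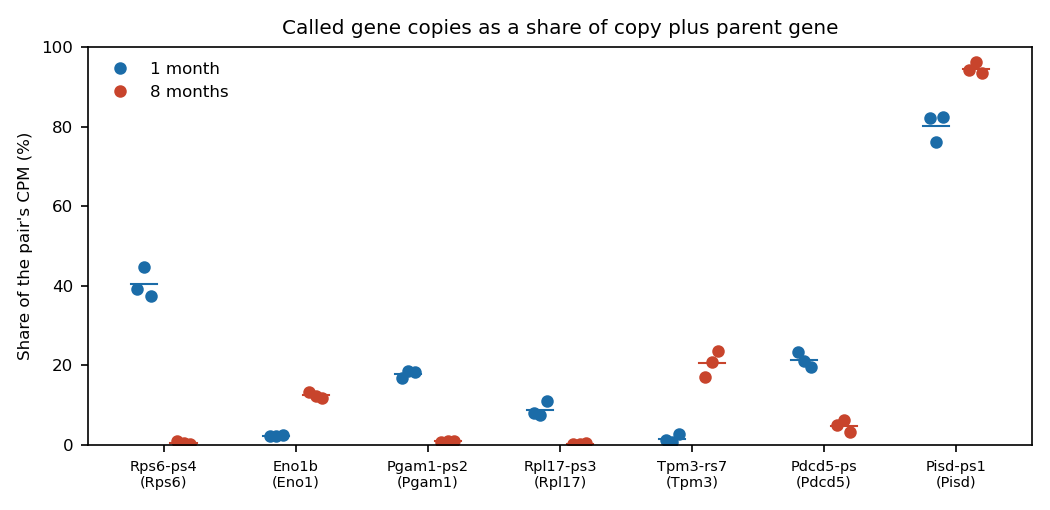
Share of the summed CPM of a called copy and its parent gene (named in brackets) that fell on the copy (vertical axis, percent) in the libraries of 1 month and of 8 months; points are libraries and bars are means of 3. The ages do not overlap in any of the 7 pairs, as the copies were called for their difference.

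At 12 months the called genes stood between the younger ages. With the 1-month mean set at 0 and the 8-month mean at 1, the mean of the 3 injured 12-month libraries had a median place of 0.506 (quartiles 0.409 and 0.750) and lay between 0 and 1 in 28 of the 32 genes. In 19 of the 32 genes all 3 libraries of 12 months fell in the gap between the ages, as they did in 4.93% of the 2964 tested genes without overlap. The calls were selected for a large difference between the ages. Cd59a was at 155.5, 171 and 171 CPM at 12 months, Cox7a2l at 89.5, 108 and 99.7 CPM, and Gm10709 at 27.3, 27.3 and 28.6 CPM. Levels thus did not follow the order of the ages. The 12-month libraries also had 0 Y-linked counts and Xist counts of 226, 53 and 34, so that age and this difference cannot be told apart there. Rps6-ps4, at 58.6, 50.8 and 56.5 CPM, stood nearer to 1 month, and Myo7a, at 10.8, 4.81 and 12.2 CPM, overlapped the 1-month libraries. Tpm3-rs7, Hist1h2al, Gm3608 and Gm5526 had a 12-month mean above that of 8 months.

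Intact neurons of the same ages were other libraries of the same fit, and whether they shared animals with the injured ones was not tested. At 1 month each injured library correlated best with the intact library of its own number, and at 8 months only the third did. Shared calls are therefore not independent support. All 32 genes had the same sign in intact neurons, and 27 were called in the same direction, which is 84.4% of the injured calls and 21.1% of the 128 intact calls (0.909% of genes tested). In 30 of the 32 the intact libraries of 8 and 1 month did not overlap. Rpl29 was at 211, 220 and 204 CPM in intact neurons at 1 month and 28.1, 67.1 and 29 CPM at 8 months, and Ip6k2 at 11.8, 8.88 and 13.9 CPM and 66.5, 57.8 and 53.6 CPM. The 5 genes not called in intact neurons were Myo7a, Yipf4, Gm5526, Gm3608 and Gm13080. Whether an age difference differed between injured and intact neurons was tested by the interaction, and none of the 32 genes passed it. Its unadjusted p was below 0.05 for Myo7a, Yipf4, Gm5526 and Cd59a, as for 4.88% of all genes tested. Myo7a was at 5.88, 9.85 and 6.82 CPM in intact neurons at 1 month and at 0.978, 1.5 and 7.11 CPM at 8 months, so 1 intact 8-month library remained within the 1-month range (interaction edgeR p = 0.00268, adjusted p = 0.566).

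**Figure D4:**
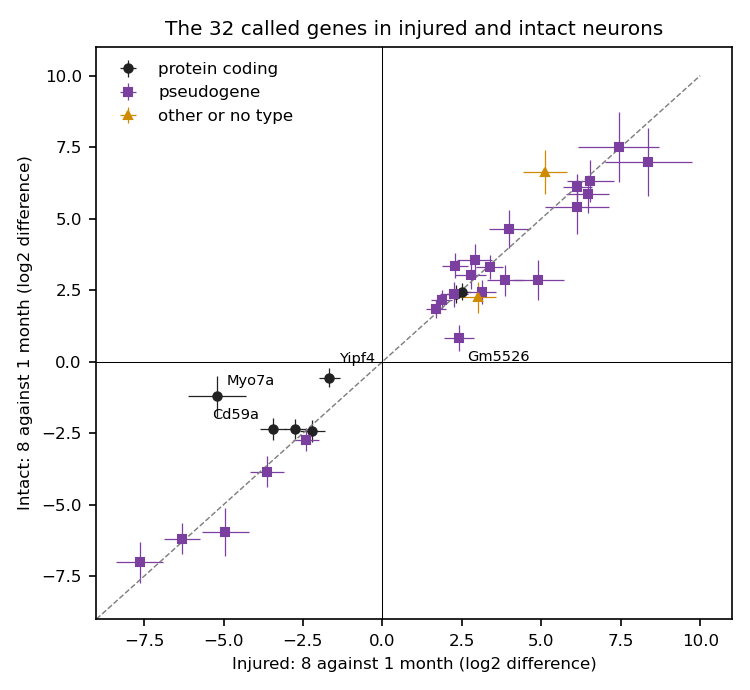
Log2 difference of 8 against 1 month in injured neurons (horizontal axis) and in intact neurons (vertical axis) for the 32 called genes, with bars of 1 SE; the dashed line marks equal differences. All genes lie in the quadrants of equal sign, with Myo7a at -5.21 in injured and -1.21 in intact neurons.

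The interaction called 1 gene, Tspan8, a tetraspanin of the cell membrane (0.0071% of genes tested, chromosome 10, 115816832 to 115849893). It was at 41.4, 66.6 and 29 CPM in injured neurons at 1 month and at 33.3, 126 and 57.1 CPM at 8 months, which overlapped (0.66 ± 0.60, unadjusted edgeR p = 0.288). In intact neurons it was at 111, 133 and 123 CPM at 1 month and at 0, 3.99 and 1.34 CPM at 8 months. The difference of the differences was 6.77 ± 0.97 (edgeR adjusted p = 0.0309) and lost its call in 14 of 26 alternatives.

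Genes of the interferon response, which cells switch on when they sense virus or foreign nucleic acid, were higher at 8 months as a list, and much of that rested on 1 library. The list held 51 genes, of which 46 were tested and 41 were higher. Mx2 was the only edgeR call (0.227% of all genes were called). With it, 17 of the 46 had an unadjusted p below 0.05, all on the higher side, where 2.58% of all genes did. DESeq2 called 3 members (0.834% of all genes were called) and limma-voom 4 (3.02%). The ages did not overlap in 16 members on the higher side (9.66% of all genes) and 2 on the lower side (11.4%). The list's median log2 difference was 1.61, against -0.004 over all genes, and it was 0.08 in intact neurons. Under scaling to ERCC totals, where the median of all genes moved to -1.41, the list's median was -0.51 and 17 members were higher. All 17 genes with an unadjusted p below 0.05 had their highest level in the first 8-month library, as did 37 of the 46. Without that library 5 members met the same threshold (1.38% of all genes on that side), 17 did not overlap on the higher side (16.2% of all genes), and the median was 0.66. That library was also the one with the highest non-peptidergic and lowest neurofilament markers, and it had an ERCC share of 11.6% (1.20% to 2.67% in the other 5), the highest share of the dominant feature and the fewest genes detected (15395). The part of these in the list's level was not tested.

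Mx2 belongs to the Mx GTPases, which block virus replication, and its reference copy is typed as a pseudogene (chromosome 16, 97535308 to 97560900). It was at 15.5, 11.3 and 15.9 CPM at 1 month and at 341, 190 and 92.6 CPM at 8 months, a log2 difference of 3.86 ± 0.56 (edgeR adjusted p = 0.00265). All 3 libraries of 8 months stood above all of 1 month, and those of 12 months lay between, at 59.2, 67 and 40.6 CPM. In intact neurons Mx2 rose too, from 10.2, 5.12 and 8.56 CPM to 48.4, 76.3 and 46.1 CPM (2.84, adjusted p = 0.0191). The related Mx1 was at 1.87, 0.895 and 0.621 CPM and at 26.8, 6.98 and 1.95 CPM in injured neurons (unadjusted edgeR p = 0.0017).

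Among effectors, Ifit1, which binds foreign RNA, was at 2.01, 3.13 and 25.9 CPM at 1 month and at 385, 78.5 and 33.7 CPM at 8 months. Rsad2, an antiviral radical enzyme, was at 2.01, 0.745 and 2.48 CPM and at 59.7, 29.5 and 6.81 CPM. In both, the 8-month libraries differed more among themselves than the third of them differed from 1 month, and neither passed the adjusted threshold (adjusted edgeR p = 0.698 and 0.526). Eif2ak2, the kinase that halts translation on double-stranded RNA, was steadier, at 19.8, 19.1 and 25.2 CPM and at 83.7, 52.2 and 48.7 CPM (1.52 ± 0.37, adjusted edgeR p = 0.173). Of the factors that carry the signal to the nucleus, Stat2 was at 50.1, 29.7 and 33.9 CPM and at 230, 74.5 and 69.3 CPM, Irf9 at 6.61, 5.81 and 5.79 CPM and at 28.1, 18.8 and 20.3 CPM, and Irf7 at 1.01, 1.19 and 3.31 CPM and at 59.2, 10.9 and 4.87 CPM. Irf9 was the most even of these across the 8-month libraries. Irf9 and Eif2ak2 were called when the 9 injured libraries were fitted alone (adjusted edgeR p = 0.0105 and 0.0377).

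**Figure D5:**
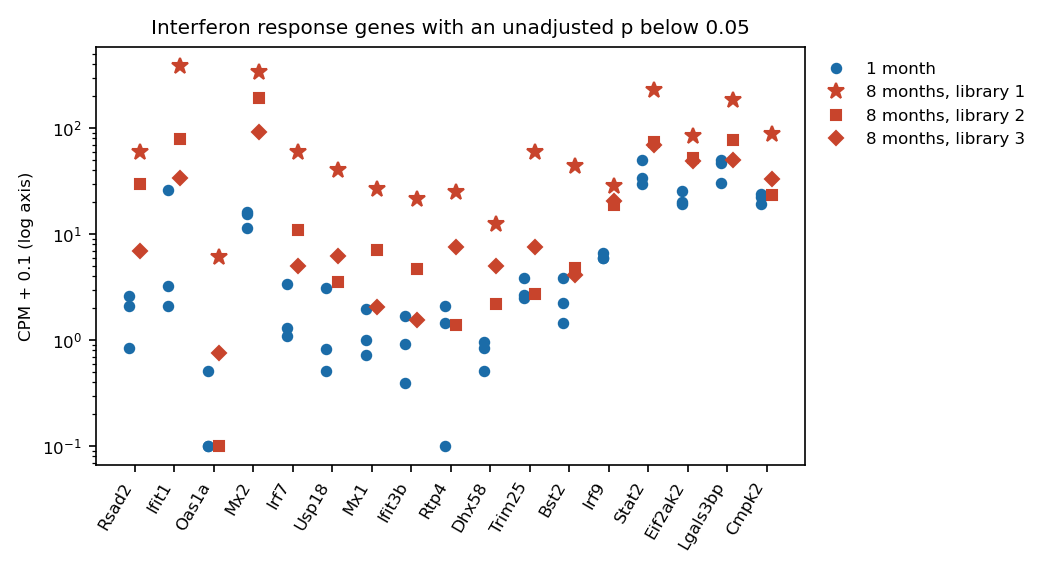
CPM plus 0.1 (vertical log axis) of the 17 interferon response genes with an unadjusted p below 0.05, in the 3 libraries of 1 month (circles) and of 8 months (star for the first library, square and diamond for the others). The first 8-month library is the highest of the 6 in each gene.

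Promoters of 3 of these genes are shown because they carry the letters of the interferon-stimulated response element, a motif known from the promoters of interferon-induced genes. The motif searched was GAAANNGAAA, or TTTCNNTTTC on the other strand, in the 300 bases from 250 before to 50 after the start of each gene (RefSeq, GRCm38.p6). Of 12 genes with an unadjusted p below 0.05 and a window, 7 held it (58.3%), as did 9 of 24 other tested members (37.5%). In the whole list, which includes these genes, 18 of 39 held it (46.2%), as did 3.99% of 27025 genes. Neither Mx gene has a window in that table. The 250 bases before the start follow, with matches in capitals, for Ifit1 (plus strand, chr19:34640639-34640888), Rsad2 (minus strand, chr12:26456453-26456702) and Stat2 (plus strand, chr10:128270248-128270497).
Ifit1: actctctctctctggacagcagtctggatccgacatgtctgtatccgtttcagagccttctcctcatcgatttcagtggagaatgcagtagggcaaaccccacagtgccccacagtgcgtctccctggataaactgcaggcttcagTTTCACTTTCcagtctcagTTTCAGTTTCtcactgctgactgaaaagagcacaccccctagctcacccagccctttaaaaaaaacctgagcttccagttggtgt
Rsad2: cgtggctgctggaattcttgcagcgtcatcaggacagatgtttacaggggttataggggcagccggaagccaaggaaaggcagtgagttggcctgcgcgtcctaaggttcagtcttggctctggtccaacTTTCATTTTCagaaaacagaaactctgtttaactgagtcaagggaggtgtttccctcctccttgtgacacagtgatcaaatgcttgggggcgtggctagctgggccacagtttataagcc
Stat2: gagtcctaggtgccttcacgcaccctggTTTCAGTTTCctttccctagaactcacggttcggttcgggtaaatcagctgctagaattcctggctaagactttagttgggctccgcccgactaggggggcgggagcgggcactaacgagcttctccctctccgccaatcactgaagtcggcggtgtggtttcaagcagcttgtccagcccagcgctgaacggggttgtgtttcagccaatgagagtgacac
Ifit1 has matches that begin 104 and 85 bases before its start, Rsad2 has 1 that begins 120 bases before and Stat2 has 1 that begins 222 bases before. The matches are descriptions of these letters and no binding was measured.

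Genes for MHC class I and antigen processing, which display peptides to T cells, had 0 edgeR calls among 18 tested (0.227% of all genes). An unadjusted p below 0.05 was met by 0 (4.9% of all genes). DESeq2 called 0 (0.834% of all genes), limma-voom 0 (3.02%) and edgeR on the 9 injured libraries alone 0 (0.982%). Of the 18, 17 were higher, 8 without overlap (9.66% of all genes), with a median log2 difference of 0.91. Without the first 8-month library the median was 0.22. Under ERCC totals the list's median was -0.99, with 4 members higher, where the median of all genes moved to -1.41. H2-D1, a class I heavy chain, was at 62.9, 67.4 and 77.4 CPM at 1 month and at 242, 21.6 and 53 CPM at 8 months, so that 1 library was above and the other two below the 1-month range. Tapbp, which loads peptides, was at 84.6 to 102 CPM and 128 to 141 CPM.

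The nerve injury program was present at both ages with no call between them. Of 29 tested genes edgeR called 0 (0.227% of all genes), and 1 had a p below 0.05 before adjustment (4.9% of all genes). DESeq2 called 0 (0.834% of all genes) and limma-voom 1, Plaur (3.02%). The median log2 difference was 0.17, against -0.004 over all genes. Under ERCC totals it was -1.27, where the median of all genes moved to -1.41. Atf3, the marker factor of axon injury, was at 752, 304 and 473 CPM at 1 month and at 184, 926 and 629 CPM at 8 months. Sprr1a, a protein of regrowing axons that stayed at or below 1.34 CPM in the intact libraries of both ages, was at 1530.4, 627 and 508 CPM and at 140.4, 1604 and 847 CPM (-0.04 ± 0.71). In both genes the first 8-month library was the lowest of the 6. Gap43 was at 1252, 767 and 935 CPM and at 1142, 1516 and 1026 CPM (0.32 ± 1.16). Stat3, a signal factor of the injury response, was the 1 with an unadjusted p below 0.05, at 303, 218 and 282 CPM and at 613, 398 and 395 CPM (0.81 ± 0.29, adjusted edgeR p = 0.718).

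DNA methylation enzymes and readers also had 0 edgeR calls among 18 tested genes (0.227% of all genes). An unadjusted edgeR p below 0.05 was met by 2 (4.9% of all genes). DESeq2 called 0 (0.834% of all genes) and limma-voom 2, Dnmt1 and Zbtb38 (3.02%). The list had a median log2 difference of -0.28. Dnmt1, the methyltransferase that copies methylation after replication, was at 12.5, 12.7 and 14.3 CPM at 1 month and at 37.1, 45.9 and 37 CPM at 8 months. The ages were far apart and the libraries of each close together (1.60 ± 0.61, unadjusted edgeR p = 0.0177, adjusted p = 0.824), and it was called among the 9 injured libraries alone (adjusted p = 0.00421). Zbtb38, a reader of methylated DNA, was at 144, 129 and 128 CPM and at 62.2, 86 and 93.1 CPM (-0.73 ± 0.26, unadjusted edgeR p = 0.0132, adjusted p = 0.728). Dnmt3a, the de novo methyltransferase of neurons, was at 14.3 to 17.7 CPM and 6.65 to 10.2 CPM, and Dnmt3b had no count in any of the 6 libraries.

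The 5 protein-coding genes with the smallest p outside the edgeR call had adjusted p-values from 0.0679 to 0.128. Scg5, a chaperone of a prohormone convertase, was at 80.3, 128 and 80.5 CPM at 1 month and at 453, 345 and 295 CPM at 8 months (1.92 ± 0.40, edgeR adjusted p = 0.0679). Slc25a53, a mitochondrial carrier, was at 6.46, 6.11 and 8.48 CPM and at 27.5, 24.2 and 31.1 CPM (adjusted p = 0.0695). Gpd2, the mitochondrial glycerol phosphate dehydrogenase, was at 24.1, 23.1 and 29.2 CPM and at 123, 61.8 and 81.6 CPM (adjusted p = 0.0868). Lower at 8 months were Hmgn2, a nucleosome-binding protein, at 20.3, 24.6 and 19.7 CPM and at 4.29, 4.22 and 3.73 CPM (adjusted p = 0.0935), and the kinase Hipk4, at 13.1, 14.5 and 8.48 CPM and at 0, 0.811 and 0.162 CPM (adjusted p = 0.128). The ages did not overlap in any of the 5. All 5 were called among the 9 injured libraries alone, where 87 of 12377 protein-coding genes were called (0.703%) and 35 of 434 pseudogenes (8.06%). Gnas, an imprinted gene for a G protein subunit, was at 186, 124 and 184 CPM and at 64, 89.2 and 68.6 CPM (-1.16 ± 0.27, edgeR adjusted p = 0.15) and was called there as well (adjusted p = 0.0269).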

How the data were processed

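The values are whole fragment counts per gene, deposited by the authors without normalization. Per the file headers, counting used featureCounts 1.5.2 on GENCODE vM16, paired and unstranded, with exons summed by gene name. The submitters' processing notes name Trim Galore, STAR and mm10. The deposited exon lengths (unit: other, bp) only describe features. Of 53370 rows, 92 spike-ins and CT010467.1 were dropped. Gene types came from RefSeq GRCm38.p6 by symbol (70.1% of names matched). The 69 columns of single cells were not used. The fit used edgeR 4.0.16 on the 18 low-input libraries (R 4.3.3, filterByExpr, TMM, robust quasi-likelihood F tests, 12 residual degrees of freedom, Benjamini-Hochberg over all genes). Log2 differences are edgeR values ± SE, where SE is the size divided by the square root of F. On simulated data for this comparison (13720 genes), 0% of 2-fold, 31.3% of 4-fold and 68.2% of 8-fold changes were recovered. Alternatives used DESeq2 1.42.0, limma 3.58.1 and other scalings, filters and libraries. Named genes were every call, its parent, members of fixed lists, interaction calls and the 5 protein-coding genes nearest the threshold; H2-D1, Atf3, Dnmt3a, Dnmt3b and Plaur were named after their values were seen. Members and lists were chosen with earlier results of these data known. Ratios and floors cover counting error only.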

Additional observations from a re-analysis of the deposited data

Results flagged for a closer look

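The age difference of Tspan8 differed between injured and intact neurons by 6.77 on the log2 scale (edgeR interaction, adjusted p = 0.0309). It was 0.66 in injured and -6.10 in intact neurons, with injured libraries at 29 to 126 CPM over both ages and intact libraries of 8 months at 0, 3.99 and 1.34 CPM. Over 26 alternatives the adjusted p of this difference lay between 1.44e-19 and 0.565.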

How the results depend on the processing

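None of the 32 called genes changed sign under any alternative run, and Rps6-ps4 kept its call in all 28. Of the others, 17 lost it in 1 to 5 alternatives and Yipf4 (17) and Gm5526 (15) in most. The 32 calls (7 protein coding, 23 pseudogenes; interaction 1) became 5 (2 and 2; interaction 9) under ERCC totals, 17 (2 and 14; interaction 0) without TMM, 227 (189 protein coding; interaction 126) without a filter, 117 (63 and 43; interaction 45) with DESeq2, 426 (311 and 81) with limma-voom, 132 (87 and 35) with the 9 injured libraries alone and 15 (4 and 10; interaction 0) with the dominant share as covariate. Without the second intact 12-month library 40 genes were called (11 and 26) and the interaction called 0. With the 6 libraries alone 21 protein-coding genes were called, and the 12 libraries of 1 and 8 months gave an interaction count of 0. With the replicate block over 18 libraries 25 genes were called and the interaction called 0; the 6 libraries with the block gave 7 (2 and 5), and a block within age gave an interaction count of 1. Libraries of 1 and 8 months with the same number had correlations of deviations of -0.144, 0.232 and -0.0528. Injured and intact libraries with the same number had 0.126, 0.224 and 0.290 at 1 month, each best with its own number, and -0.273, -0.238 and 0.171 at 8 months, so the numbers were not taken as pairs. With single libraries of 1 or 8 months left out there were 17 to 35 calls, 4 to 9 protein coding, 12 to 24 pseudogenes and 0 to 10 interaction calls. Without the first 8-month library the interferon list had 5 members with an unadjusted p below 0.05, and counts without the dominant feature were higher at 8 months (difference 135308, against -389509 with all 6 and -1008038 without the third 1-month library). Under ERCC totals the median log2 difference of all genes moved to -1.41. There these genes turned sign: Rps6 -0.98, Pgam1 -0.47, Stat2 -0.37, Cmpk2 -0.80, Eif2ak2 -0.12, Lgals3bp -0.63, Stat3 -0.83, Gap43 -1.15 and Tspan8 -0.45. Sprr1a was 0.24 with limma-voom, 0.62 with the covariate and -0.85 to 0.61 with single libraries left out, and Tspan8 was -0.0154 to 1.04 with single libraries left out. The cause of these shifts was not tested.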

Other observations

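Protein-coding genes with an unadjusted p below 0.05 between 8 and 1 month in injured neurons were spread unevenly over the chromosomes. Chromosome 2 held 67 of 546 such genes (12.3%) and 7.94% of the protein-coding genes tested, and chromosome 9 held 61 (11.2%) and 5.69%. Among the 87 protein-coding genes called in the 9 injured libraries alone, 20 lay on chromosome 2 (23%, against 7.86% of those tested). Chromosome 9 held 10 (11.5%, against 5.70%) and chromosome 17 held 9 (10.3%, against 4.75%). Of protein-coding genes with an unadjusted edgeR p below 0.05 in intact neurons, chromosome 2 held 7.16% and chromosome 9 held 7.26%. Chromosome 17 held 4.21% of the 546 genes in injured neurons and 4.69% of those tested. Cd59a, Scg5, Gpd2 and Gnas lie on chromosome 2, and Rpl29, Ip6k2, Dnmt1 and Zbtb38 on chromosome 9. This pattern was noticed after the values were seen and was not tested.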
